A study of Mus musculus with 6 samples.

Results

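A list of 10 genes commonly used to recognise mouse macrophages was followed through bulk RNA-seq of CD144-enriched cells from ischemic muscle. The genes were Adgre1, Fcgr1, Csf1r, Cd68, Mrc1, Lyz2, C1qa, C1qb, C1qc and Cd14. They were taken as a list and found by matching the Ensembl gene IDs of the count tables to symbols, and all 10 were present among 47729 genes. The rule itself used no measured value, but the list was chosen with earlier results of these data known. Of the 10, Adgre1, Fcgr1, Mrc1 and Lyz2 stood far higher in KO + GFP than elsewhere, and C1qb was highest in WT + GFP. The other 5 never exceeded 11 reads in a library.

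The 6 libraries fell into 3 groups of 2. WT + GFP libraries came from WT mice injected with Ad-GFP, an adenovirus for green fluorescent protein. KO + GFP libraries came from Leene-KO mice given the same virus, and KO + LEENE libraries from Leene-KO mice injected with Ad-LEENE, an adenovirus that carries the human lncRNA. All mice ate a high-fat high-sucrose (HFHS) diet and underwent hind limb ischemia (HLI) on day 0. By the labels, the virus went into the muscle on days 1 and 4, whereas the study's methods place the second injection a day later. Muscle was harvested after 1 week, and ECs were enriched with magnetic beads against CD144 (VE-cadherin). Per the study's methods, the KO is a germline CRISPR/Cas9 deletion of the mouse region syntenic to human LEENE on a C57BL/6J background. It is therefore not limited to ECs, and neither is a virus injected into muscle. The labels give no age or sex, and do not say whether a library is 1 mouse or a pool. Per the file headers, both libraries of a group carry the same sample number. P values rest on the spread between the 2 libraries of a group, pooled over the groups in 1 fit, and that spread may be technical. Leene itself was not analysed here, so the genotypes were not checked against the targeted gene.

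Macrophages are phagocytes that enter ischemic muscle from the blood as monocytes or live there as residents, and they clear dead tissue and act on the growing vessels. Adgre1 encodes F4/80, the classic surface marker of mouse macrophages. Fcgr1 encodes CD64, the high-affinity receptor for IgG, and Mrc1 encodes CD206, a mannose receptor typical of resident and repair macrophages. Lyz2 encodes the secreted enzyme lysozyme, which monocytes and neutrophils also make. Csf1r is the receptor for the survival factor CSF1, Cd68 a glycoprotein of late endosomes and lysosomes, and Cd14 the coreceptor that hands bacterial lipopolysaccharide to TLR4. C1qa, C1qb and C1qc encode the chains of C1q, the recognition protein of the classical complement pathway, and macrophages make all of them together.

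On GRCm38, the build of the count tables, Adgre1 (ENSMUSG00000004730) lies at chr17:57358686-57483529, Fcgr1 (ENSMUSG00000015947) at chr3:96282909-96293969, Mrc1 (ENSMUSG00000026712) at chr2:14229392-14332057 and Lyz2 (ENSMUSG00000069516) at chr10:117277334-117282274. The C1q genes sit side by side on chromosome 4, with C1qb (ENSMUSG00000036905) at 136880129-136886187, C1qc (ENSMUSG00000036896) at 136889804-136893065 and C1qa (ENSMUSG00000036887) at 136895917-136898803. Cd68 (ENSMUSG00000018774) lies at chr11:69664213-69666153. Reads were counted over exons without strand. Csf1r overlaps Hmgxb3 on the other strand, so its few reads could belong to either, and no other of the 10 overlaps an annotated gene. Close relatives had few reads in every library. Lyz1, the near copy of Lyz2, had at most 1 read per library, as did Adgre4, a relative of Adgre1, and Mrc2 had at most 5.

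Myeloid genes are classically read by the ETS factor PU.1, whose sites carry the core GAGGAA. The RefSeq promoter windows (GRCm38.p6, 250 bases before to 50 after the start site, 300 bases in all) are shown for the genes that passed the filter on low counts and have a window there, so that the genes that were high in KO + GFP can be read beside the one that was not. Capitals mark GAGGAA, or TTCCTC where the core lies on the opposite strand.
Mrc1, chr2:14229164-14229463, plus strand: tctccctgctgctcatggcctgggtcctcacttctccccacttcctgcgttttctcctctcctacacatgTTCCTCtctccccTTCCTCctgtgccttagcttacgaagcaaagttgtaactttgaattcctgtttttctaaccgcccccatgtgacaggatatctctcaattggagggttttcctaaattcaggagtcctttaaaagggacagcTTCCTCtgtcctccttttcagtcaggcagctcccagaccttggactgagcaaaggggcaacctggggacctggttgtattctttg
Fcgr1, chr3:96293920-96294219, minus strand: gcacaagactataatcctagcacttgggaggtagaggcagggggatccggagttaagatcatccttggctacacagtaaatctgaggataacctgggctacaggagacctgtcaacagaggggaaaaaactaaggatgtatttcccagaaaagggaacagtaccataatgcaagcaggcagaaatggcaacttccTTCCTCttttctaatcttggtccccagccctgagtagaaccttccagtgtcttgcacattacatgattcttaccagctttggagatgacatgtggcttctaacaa
Lyz2, chr10:117282223-117282522, minus strand: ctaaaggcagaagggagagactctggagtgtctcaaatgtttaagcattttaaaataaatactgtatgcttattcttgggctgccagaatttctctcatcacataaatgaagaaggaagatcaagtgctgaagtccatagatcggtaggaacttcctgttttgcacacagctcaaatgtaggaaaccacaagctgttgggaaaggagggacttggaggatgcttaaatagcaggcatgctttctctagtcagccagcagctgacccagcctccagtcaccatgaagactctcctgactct
C1qb, chr4:136886151-136886450, minus strand: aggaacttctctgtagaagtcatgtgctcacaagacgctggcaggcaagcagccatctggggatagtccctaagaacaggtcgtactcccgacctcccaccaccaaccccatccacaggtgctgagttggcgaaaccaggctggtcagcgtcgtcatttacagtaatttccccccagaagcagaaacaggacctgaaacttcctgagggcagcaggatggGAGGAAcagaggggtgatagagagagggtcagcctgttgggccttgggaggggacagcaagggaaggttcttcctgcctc

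The core occurred 3 times in the Mrc1 window, once in the Fcgr1 window, once in the C1qb window and not in the Lyz2 window. Among 32851 promoter windows, 28.3% held it on either strand. Both Mrc1 and C1qb, which differed in the group where they were high, thus held it. A match of letters is not a binding site, and its absence says nothing about the factor. Spi1, which encodes PU.1, had 2 and 1 reads for WT + GFP. It had 1 and 0 for KO + GFP, then 0 and 0 for KO + LEENE.

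Totals ranged from 1770992 reads in a KO + LEENE library to 5602603 in a KO + GFP library. The detection floor was set at 3 reads, which equal between 0.536 and 1.69 CPM, the count scaled to the library total, depending on depth. Mitochondrially encoded genes took 50.1% and 50.9% of reads in WT + GFP and 33.6% to 34.3% in the other 4 libraries. The 2 libraries of a group differed by more than sampling noise in WT + GFP (chi-square over its degrees of freedom 10.0) and by little more in KO + GFP (1.38) and KO + LEENE (1.20), so none was a copy of another. Differences between groups were very widespread: edgeR called 70.1% of 8903 tested genes in KO + GFP vs WT + GFP, 67.8% in KO + LEENE vs KO + GFP and 70.7% in KO + LEENE vs WT + GFP. For 44.2% of the tested genes, at least 1 whole group had no more than 3 reads in either library.

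The sum of the 10 genes was 0.00298% and 0.00402% of reads for WT + GFP, 0.0844% and 0.0807% for KO + GFP, then 0.00175% and 0.0014% for KO + LEENE. The group means were 0.0035% ± 0.000739 (SD, n = 2), 0.0825% ± 0.00256 (SD, n = 2) and 0.00157% ± 0.000251 (SD, n = 2). The exact 95% binomial intervals of the KO + GFP libraries, 0.082% to 0.0868% and 0.0778% to 0.0837%, lay far above those of the other 4, the highest of which ended at 0.00468%. Adgre1, Mrc1 and Lyz2 made up most of the sum in KO + GFP. In bulk RNA, fewer cells of a type and less RNA per cell cannot be told apart.

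**Figure D1:**
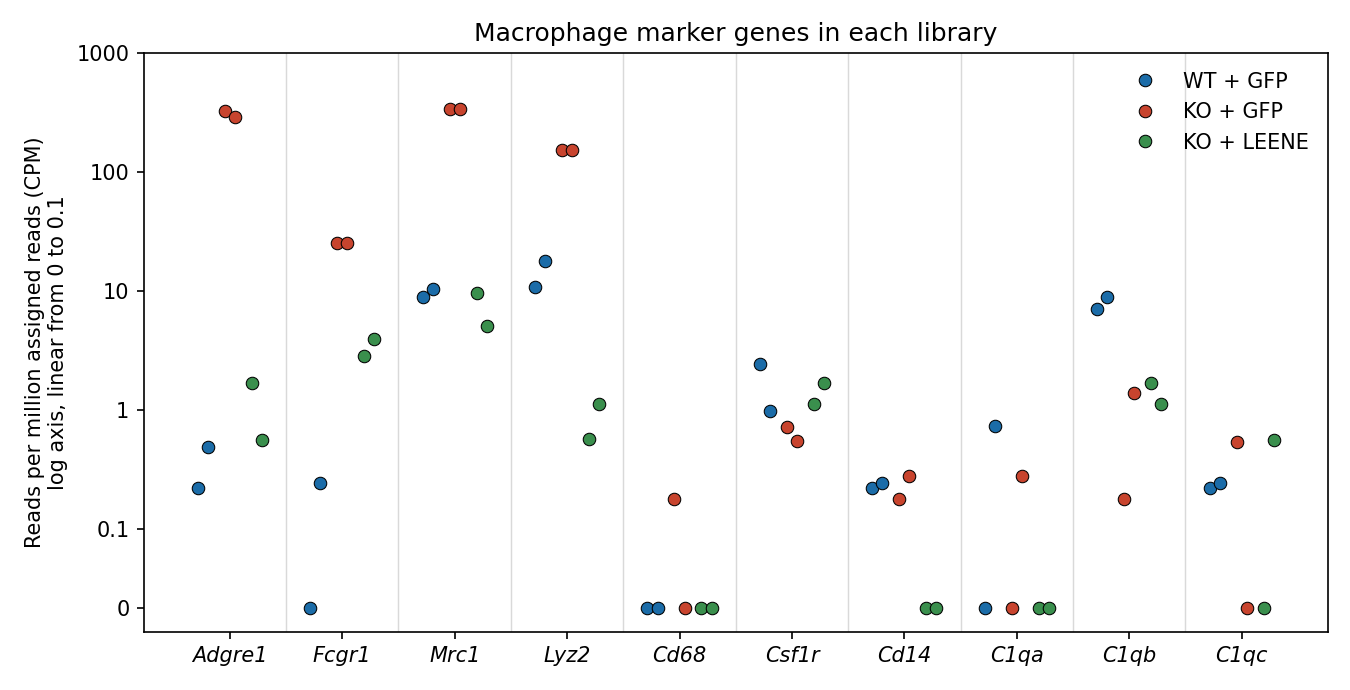
CPM, the reads scaled to the library total (vertical axis, logarithmic above 0.1 and linear below) for each of the 10 macrophage genes, 1 point per library, coloured by group. Adgre1, Fcgr1, Mrc1 and Lyz2 sit highest in both KO + GFP libraries, C1qb in both WT + GFP libraries, and Cd68, Cd14, C1qa and C1qc stay below 1 CPM throughout.

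Adgre1 had 1 and 2 reads for WT + GFP, 1823 and 1060 for KO + GFP, then 3 and 1 for KO + LEENE. In CPM these were 0.22 and 0.485, then 325 and 292, then 1.69 and 0.558. The gene was thus at the floor in WT + GFP and KO + LEENE and well expressed in KO + GFP, with no overlap between KO + GFP and the other groups. The KO + GFP reads exceeded those of WT + GFP 1265-fold after TMM scaling (95% counting interval 432 to 6138), and those of KO + LEENE 620-fold (242 to 2277). The fitted log2 fold change was 10.15 ± 0.194 (SE, edgeR adjusted p = 2.55e-303) in KO + GFP vs WT + GFP and -9.19 ± 0.198 (adjusted p = 7.88e-263) in KO + LEENE vs KO + GFP. With so few reads in the low groups, the exact size of both changes is loosely set, and the second was -10.09 without KO + LEENE replicate 1 and -8.57 without KO + LEENE replicate 2. It was -8.07 with library size as the only scaling. The adjusted p of Adgre1 in KO + GFP vs WT + GFP was 1.67e-33 with DESeq2. In edgeR with counts thinned to the smallest total it was 3.34e-12. KO + LEENE and WT + GFP differed by 0.96 ± 0.989 on the log2 scale, which did not pass the edgeR test (adjusted p = 0.406) and was not resolvable at this depth. This difference was 0.062 without KO + LEENE replicate 1, 1.584 without KO + LEENE replicate 2 and 1.605 with library size as the only scaling.

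Mrc1 was the best measured of the genes, because it was the single one above the filter's level in all 6 libraries. It had 40 and 43 reads for WT + GFP, 1897 and 1217 for KO + GFP, then 17 and 9 for KO + LEENE. As CPM the levels were 8.82 and 10.4, then 339 and 336, then 9.6 and 5.02. Both KO + GFP libraries stood well above the rest, and the ranges of WT + GFP and KO + LEENE overlapped in CPM. Mrc1 rose by 5.61 ± 0.115 on the log2 scale in KO + GFP vs WT + GFP (edgeR adjusted p = 1.22e-280), which was 49.4-fold with a counting interval of 39.7 to 62.2. In KO + LEENE vs KO + GFP it changed by -6.67 ± 0.145 (adjusted p = 3.70e-261), and KO + GFP was 103-fold higher after TMM scaling (70.2 to 158). With library size as the only scaling this change was -5.52, a smaller difference than the counting interval covers. In KO + LEENE vs WT + GFP it changed by -1.06 ± 0.298 (edgeR adjusted p = 0.00093). That last call rested on the scaling and on 1 library: it was -0.39 (adjusted p = 0.264) with library size as the only scaling and -0.61 (adjusted p = 0.144) without KO + LEENE replicate 2.

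Lyz2 had 49 and 74 reads for WT + GFP, 853 and 550 for KO + GFP, then 1 and 2 for KO + LEENE. The CPM values of 10.8 and 17.9, then 152 and 152, then 0.565 and 1.12 put the 3 groups in an order without overlap. Unlike Adgre1, Lyz2 was clearly present in WT + GFP and at the floor in KO + LEENE alone. Its log2 fold change was 3.90 ± 0.124 (edgeR adjusted p = 4.95e-156) in KO + GFP vs WT + GFP and -8.55 ± 0.25 (adjusted p = 8.98e-176) in KO + LEENE vs KO + GFP. In KO + LEENE vs WT + GFP it was -4.65 ± 0.484 (adjusted p = 1.73e-20), and WT + GFP was 26.8-fold higher (95% counting interval 8.95 to 132). With library size as the only scaling, the changes in KO + LEENE vs KO + GFP and KO + LEENE vs WT + GFP were -7.43 and -4.02. S100a9, which neutrophils make in abundance, never exceeded 8 reads, and no neutrophil gene of 11 listed passed the filter.

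Fcgr1 had 0 and 1 reads for WT + GFP, 143 and 91 for KO + GFP, then 5 and 7 for KO + LEENE. Its CPM was 0 and 0.242, then 25.5 and 25.1, then 2.82 and 3.91, so again no group overlapped another. It rose in KO + GFP vs WT + GFP (edgeR log2 fold change 7.88 ± 0.463, adjusted p = 3.46e-57) and changed by -4.04 ± 0.319 in KO + LEENE vs KO + GFP (adjusted p = 8.00e-34). The first of these rested on 1 WT + GFP read: the ratio was 308 with a counting interval of 54.8 to 12220, and the log2 fold change was 6.95 without WT + GFP replicate 1, 9.89 without WT + GFP replicate 2 and 6.35 with counts thinned to the smallest total. Fcgr1 was also the one macrophage gene called higher in KO + LEENE vs WT + GFP (log2 fold change 3.83 ± 1.035, edgeR adjusted p = 0.000398). That comparison set 12 reads against 1, a ratio of 18.4 with a counting interval of 2.72 to 785, and its log2 fold change was 2.92 without WT + GFP replicate 1, 5.86 without WT + GFP replicate 2 and 2.81 with thinned counts. With library size as the only scaling it was 4.50, and Fcgr1 changed by -2.89 in KO + LEENE vs KO + GFP.

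Of the C1q chains C1qb alone was tested, and it did not follow Adgre1. It had 32 and 37 reads for WT + GFP, 1 and 5 for KO + GFP, then 3 and 2 for KO + LEENE, or 7.06 and 8.97, then 0.179 and 1.38, then 1.69 and 1.12 CPM. WT + GFP was the high group, and KO + GFP and KO + LEENE overlapped. C1qb fell by 3.08 ± 0.507 on the log2 scale in KO + GFP vs WT + GFP (edgeR adjusted p = 4.12e-09), opposite in sign to Adgre1, Fcgr1, Mrc1 and Lyz2. Its size rested on single libraries, with -2.07 without KO + GFP replicate 1 and -4.75 without KO + GFP replicate 2. It also changed by -3.12 ± 0.537 in KO + LEENE vs WT + GFP (adjusted p = 1.92e-08), or by -2.47 with library size as the only scaling. KO + LEENE vs KO + GFP gave -0.05 ± 0.912 (adjusted p = 0.979), where 5 reads against 6 left a ratio of 0.969 with a counting interval of 0.234 to 3.81. Its partner chains were not seen at that level even in WT + GFP: C1qa had 0 and 3 reads there and C1qc 1 and 1. Over all 6 libraries C1qa stayed at or under 3 reads, and so did C1qc.

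Cd68, Cd14 and Csf1r were too low to compare. The latter genes lie on chromosome 18, Cd14 (ENSMUSG00000051439) at 36725074-36726736 and Csf1r (ENSMUSG00000024621) at 61105572-61132149. Cd68 had 1 read in 1 KO + GFP library and none in the other 5. Cd14 had 1 read in each WT + GFP and KO + GFP library and 0 in both KO + LEENE libraries. A count of 0 allows up to 1.69 CPM in the shallower KO + LEENE library, so lower levels there would not be seen. Csf1r had 11 and 4 reads for WT + GFP, 4 and 2 for KO + GFP, then 2 and 3 for KO + LEENE, and its ratio of KO + GFP to WT + GFP, 0.527, had a counting interval of 0.167 to 1.44 that includes no difference. Csf1r at 0.552 to 0.714 CPM in KO + GFP stood beside Adgre1 at 292 to 325 CPM in the same libraries.

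Of the 10 genes, 5 passed the filter on low counts. Adgre1 passed through KO + GFP alone and C1qb through WT + GFP alone, so these genes had to differ between groups to be tested. In KO + GFP vs WT + GFP, 4 of the 5 tested were called higher and 1 lower, against 34.2% of all tested genes higher and 35.9% lower. In KO + LEENE vs KO + GFP, 4 of the 5 were called lower and none higher, against 34.9% lower and 32.8% higher. In KO + LEENE vs WT + GFP, 1 of the 5 was called higher and 3 lower, against 33.9% and 36.9%. The first and second of these comparisons share the KO + GFP libraries, so a high value there enters both. Large changes were common, and the median absolute log2 fold change of all tested genes was 2.09, 2.19 and 2.12 in these comparisons. All tested genes but Mrc1, 4 of 5, had a whole group at no more than 3 reads per library, as did 44.2% of all tested genes. Lists of other cells described below also fell in KO + LEENE vs KO + GFP. Called lower were 6 of 6 tested fibroblast genes, 12 of 16 housekeeping genes (2 higher) and 7 of 12 endothelial genes (3 higher). With library size as the only scaling, 5, 10 and 5 were lower and 1, 2 and 4 higher.

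**Figure D2:**
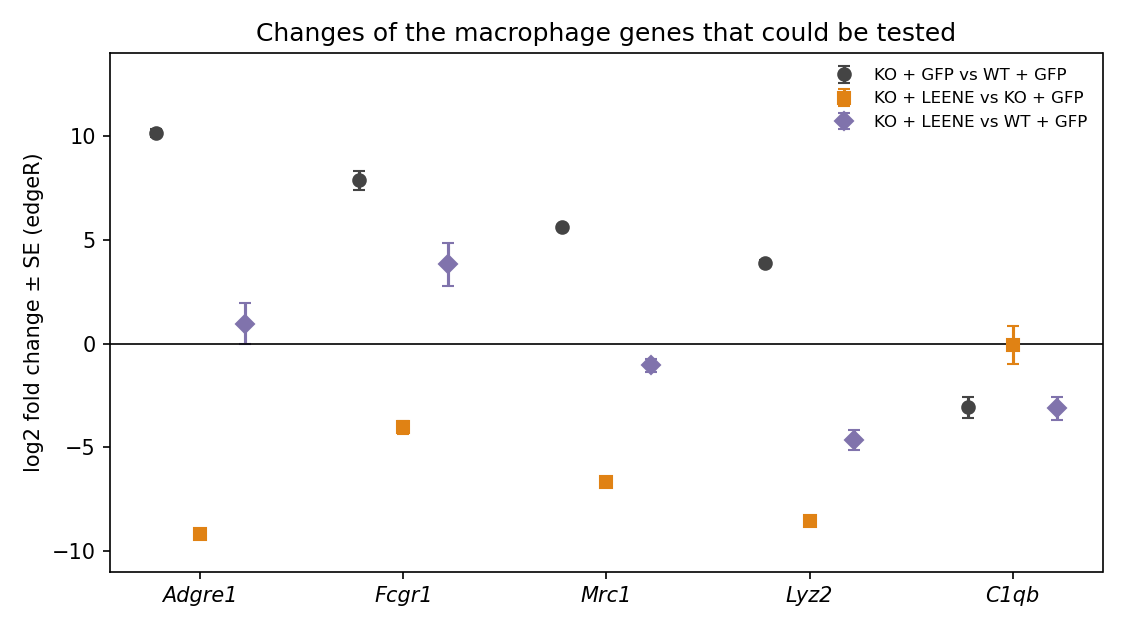
Fitted log2 fold change (vertical axis) with its standard error for the 5 macrophage genes that passed the filter on low counts, 1 symbol per comparison. Adgre1, Fcgr1, Mrc1 and Lyz2 lie above 0 in KO + GFP vs WT + GFP and below 0 in KO + LEENE vs KO + GFP, whereas C1qb lies at -3.08 and -0.05.

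Scaled to exon length, the order of the genes within a group also changed. In KO + GFP, Lyz2 had 120 CPM per kilobase in both libraries, Adgre1 100 and 90.1, Mrc1 53.1 and 52.7, and Fcgr1 9.86 and 9.70. These 4 did not overlap each other, and the remaining 6 stayed at or below 1.27 CPM per kilobase. In WT + GFP, Lyz2 (8.54 and 14.2) was followed by C1qb (6.49 and 8.24) and then by Mrc1 (1.39 and 1.64), with Adgre1 at 0.068 and 0.149. In KO + LEENE no gene stood out: C1qb (1.56 and 1.03), Fcgr1 (1.09 and 1.51) and Mrc1 (1.51 and 0.789) overlapped. The kit reads the 3′ ends of transcripts, so scaling by length ranks genes only roughly.

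Of 15 pairs of libraries, 1 for each tested gene in each group, 3 differed beyond the depth of the libraries by an exact binomial test before adjustment and 2 after it. These 2 were Adgre1 in KO + GFP (exact adjusted p = 0.0491) and Lyz2 in WT + GFP (exact adjusted p = 0.0491). Both gaps were small beside those between the groups. The third was C1qb in KO + GFP, with 1 and 5 reads or 0.179 and 1.38 CPM (exact p = 0.0378, adjusted p = 0.189).

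Genes that act with these markers were read from fixed lists. The lists describe the same 6 libraries and were not tested as sets. A listed gene, like Adgre1 or C1qb, could pass the filter through 1 group alone and then had to differ to be tested, so the counts are descriptions. Their counts stand beside the shares of all tested genes, which were 34.2% higher and 35.9% lower in KO + GFP vs WT + GFP, and 32.8% higher and 34.9% lower in KO + LEENE vs KO + GFP. Where a call stated here for a named gene changed with library size as the only scaling, this is given beside it. In the lysosome and protease list, where macrophages are rich, 8 of 14 genes were tested, and 5 rose and 3 fell in KO + GFP vs WT + GFP. Ctss, a cathepsin of antigen-presenting cells, had 10 and 13 reads for WT + GFP, 415 and 275 for KO + GFP, then 1 and 0 for KO + LEENE. Lgmn, the lysosomal protease legumain, had 16 and 13, then 262 and 178, then 15 and 11. Both rose in KO + GFP (edgeR adjusted p = 5.16e-116 and 7.64e-74), as did Grn, which encodes progranulin (adjusted p = 2.57e-12). Lamp2, a membrane protein of lysosomes in most cells, went the other way, from 740 and 652 reads to 25 and 13 (adjusted p = 1.26e-138), and had 14 and 22 in KO + LEENE. In KO + LEENE vs KO + GFP, 5 of the 8 fell and none rose, where 34.9% of all tested genes fell and 32.8% rose. Scaling by library size alone gave 5 lower and 2 higher, and Lamp2 was 1 of the latter.

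The activation and antigen presentation list held 4 tested genes of 15, with 2 higher, 1 lower and 1 not called in KO + GFP vs WT + GFP. Retnla, a secreted product of alternatively activated macrophages, had 3 and 3 reads for WT + GFP, 1542 and 971 for KO + GFP, then 2 and 4 for KO + LEENE. H2-Ab1, a chain of MHC class II, had 2 and 2, then 73 and 56, then 0 and 2. Both followed the shape of Adgre1 and rose in KO + GFP (edgeR adjusted p = 1.96e-285 and 3.87e-31). Like Adgre1, they reached the filter's level in KO + GFP alone and had to be high there to be tested. Gpnmb, a glycoprotein of lipid-laden macrophages, had 107 and 87, then 19 and 15, then 1 and 2 reads, and fell (adjusted p = 1.26e-14). Aif1, which encodes the macrophage protein IBA1, had 12 and 12, then 9 and 7, then 1 and 2 reads and did not pass the test (adjusted p = 0.771). All 4 fell in KO + LEENE vs KO + GFP, where 34.9% of all tested genes fell. When library size was the only scaling 3 fell, and Aif1 was not called (adjusted p = 0.302).

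Among the partners of Fcgr1, the signalling adaptors were not high where the receptor was. Fcer1g, the chain through which CD64 signals, had 12 and 10 reads for WT + GFP, 1 and 1 for KO + GFP, then 0 and 0 for KO + LEENE, and did not pass the filter. Tyrobp, the adaptor DAP12, had 27 and 25, then 19 and 16, then 0 and 0, with no change called in KO + GFP vs WT + GFP (edgeR adjusted p = 0.686) and a fall in KO + LEENE vs KO + GFP (adjusted p = 4.88e-09). Syk, the kinase that both adaptors recruit, had 4 and 4, then 15 and 19, then 3 and 4 reads and rose in KO + GFP (adjusted p = 1.44e-05). Of 6 listed genes, 2 were tested, and 1 rose in KO + GFP vs WT + GFP.

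The complement list beside C1q had 3 tested genes of 12, with 1 higher, 1 lower and 1 not called in KO + GFP vs WT + GFP. C5ar1, the receptor for the fragment C5a on myeloid cells, had 6 and 4 reads for WT + GFP, 903 and 577 for KO + GFP, then 5 and 2 for KO + LEENE, and rose (edgeR adjusted p = 3.32e-212). C1s1, a protease of the C1 complex, shared the direction of C1qb: it had 217 and 180 reads for WT + GFP, 1 and 1 for KO + GFP, then 0 and 0 for KO + LEENE (adjusted p = 2.25e-61).

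Around Csf1r, 3 of 10 genes of CSF1 signalling and myeloid transcription were tested, with 2 higher and 1 lower in KO + GFP vs WT + GFP, or 1 higher and 1 lower with library size as the only scaling. Csf1, the ligand, had 7 and 3 reads for WT + GFP, 36 and 17 for KO + GFP, then 3 and 1 for KO + LEENE and rose in KO + GFP (edgeR adjusted p = 8.33e-09). Runx1, a factor of blood cells that is not limited to macrophages, had 294 and 267, then 25 and 14, then 244 and 237 reads and fell (adjusted p = 5.52e-61).

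Around Cd14, 5 of 13 genes were tested, and 2 rose, none fell and 3 were not called in KO + GFP vs WT + GFP, or 2 rose and 2 fell with library size as the only scaling. Ly96, the MD-2 subunit that binds lipopolysaccharide with TLR4, had 21 and 22 reads for WT + GFP, 33 and 16 for KO + GFP, then 2 and 3 for KO + LEENE, and did not pass the test in KO + GFP vs WT + GFP (edgeR adjusted p = 0.119). Tirap, a TLR4 adaptor, had 7 and 7, then 53 and 37, then 0 and 1 reads and rose (adjusted p = 2.51e-15). Ccl2, a chemokine that draws monocytes, had 1 and 2, then 12 and 9, then 38 and 42 reads, and rose in KO + GFP (adjusted p = 5.81e-05) and again in KO + LEENE vs KO + GFP (adjusted p = 5.62e-09). Nfkb1, which acts below TLR4 in most cells, had 80 to 151 reads in every library, with no change called in KO + GFP vs WT + GFP or KO + LEENE vs KO + GFP (adjusted p = 0.696 and 0.431). Both were called with library size as the only scaling, at -0.41 and 1.30 (adjusted p = 0.00671 and 5.18e-16).

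Of 12 genes for scavenging and clearance of dead cells, 6 were tested. In KO + GFP vs WT + GFP 1 rose, 1 fell and 4 were not called, or none rose and 3 fell with library size as the only scaling. For KO + LEENE vs KO + GFP the counts were 5 higher and 1 lower, where 32.8% of all tested genes rose and 34.9% fell. Of those 5, Timd4, Mertk and Axl reached the filter's level of 2.58 CPM in KO + LEENE alone and had to be high there to be tested, so that count was largely fixed by the filter. Timd4, a phosphatidylserine receptor of resident macrophages, had 3 and 6 reads for WT + GFP, 8 and 3 for KO + GFP, then 76 and 70 for KO + LEENE. Mertk, a receptor for the uptake of apoptotic cells, had 3 and 6, then 0 and 1, then 26 and 27. Stab1, a scavenger receptor that some endothelium shares, had 14 and 20, then 10 and 8, then 45 and 44. All 3 rose in KO + LEENE vs KO + GFP (edgeR adjusted p = 8.89e-27, 1.20e-13 and 8.18e-12), as did the lipoprotein receptor Lrp1 (adjusted p = 1.22e-13). Adgre1, Mrc1 and Lyz2 had at most 17 reads per library in that group. Cd36, the fatty acid and lipoprotein scavenger receptor, was the one that fell, with 23 and 12, then 34 and 15, then 12 and 6 reads (adjusted p = 0.006), and it was not called with library size as the only scaling (-0.06, adjusted p = 0.91).

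The monocyte list divided as well, with 5 of 8 tested and 2 higher, 2 lower and 1 not called in KO + GFP vs WT + GFP. Ccr2, the receptor for Ccl2, had 21 and 29 reads for WT + GFP, 1 and 1 for KO + GFP, then 1 and 2 for KO + LEENE and fell in KO + GFP (edgeR adjusted p = 1.35e-08). Chil3, a secreted lectin of myeloid cells, was read 29 and 21 times under WT + GFP and not at all in the other 4 libraries (adjusted p = 5.97e-11). Plac8 went the other way, with 2 and 1, then 27 and 20, then 0 and 2 reads (adjusted p = 2.53e-11), and Vcan had 27 and 13, then 14 and 15, then 25 and 22 reads. Vcan was not called in KO + GFP vs WT + GFP (edgeR adjusted p = 0.901) and rose by 0.91 on the log2 scale in KO + LEENE vs KO + GFP (adjusted p = 0.0229).

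**Figure D3:**
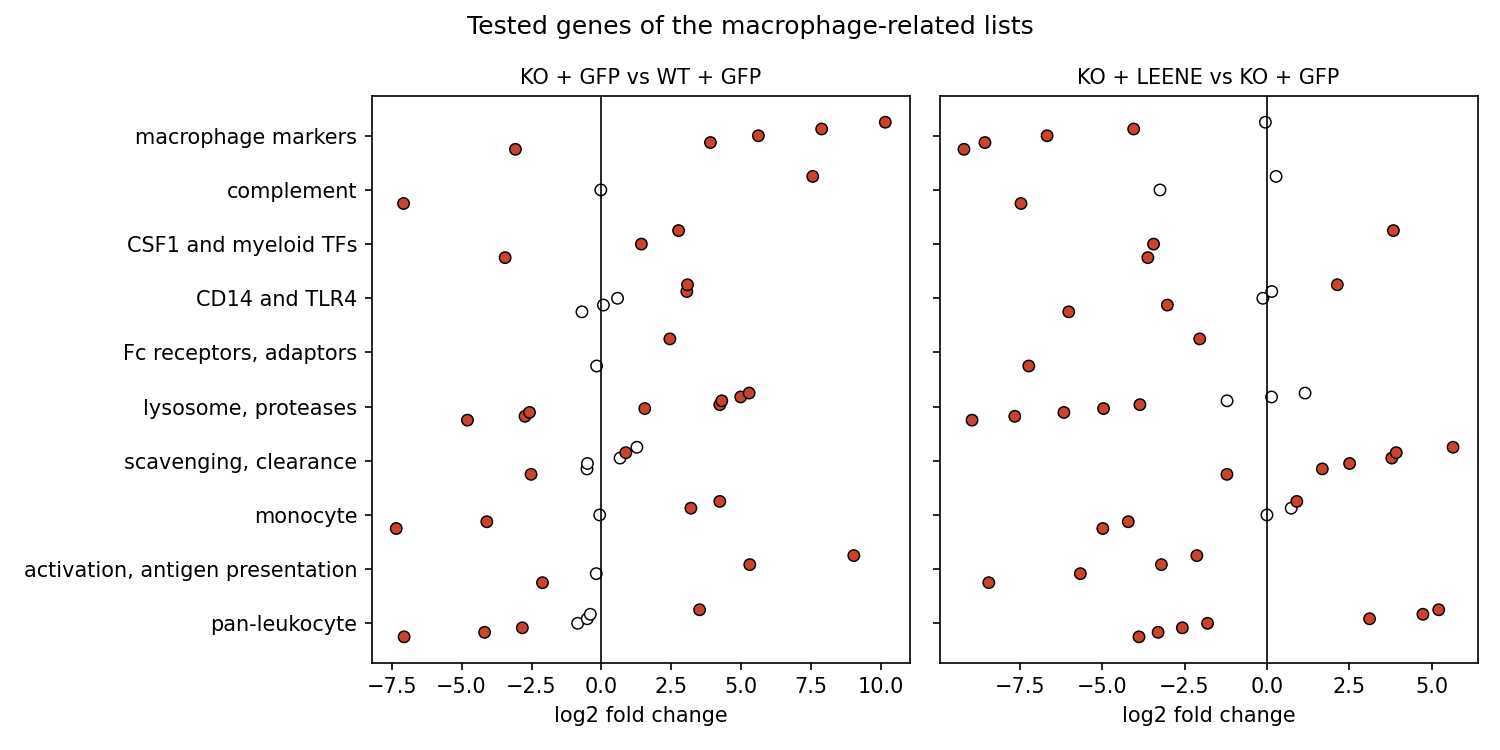
Fitted log2 fold change (horizontal axis) of every tested gene in 10 lists (rows) for KO + GFP vs WT + GFP on the left and KO + LEENE vs KO + GFP on the right, with filled points for an edgeR adjusted p under 0.05. In most lists filled points lie on both sides of 0 in KO + GFP vs WT + GFP, and 5 of the 6 tested scavenging genes lie above 0 in KO + LEENE vs KO + GFP, of which 3 passed the filter through KO + LEENE alone.

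Of 10 genes that mark leukocytes in general, 7 were tested, and 1 rose, 3 fell and 3 were not called in KO + GFP vs WT + GFP, where 34.2% of all tested genes rose and 35.9% fell. Ptprc, which encodes CD45, had 176 and 172 reads for WT + GFP, 18 and 19 for KO + GFP, then 4 and 5 for KO + LEENE, and Itgb2, the β chain of CD18 integrins, had 299 and 301, then 14 and 11, then 1 and 1. Both fell in KO + GFP vs WT + GFP (edgeR adjusted p = 3.86e-32 and 1.04e-68), while Adgre1 rose. Arhgdib fell as well, from 108 and 108 reads to 0 and 1 (adjusted p = 1.05e-37). Lcp1, the actin-bundling protein plastin of leukocytes, was the one that rose, with 4 and 4, then 47 and 25, then 2 and 2 reads (adjusted p = 2.87e-14). Itgam, the CD11b chain found on most myeloid cells, had 2 reads in each WT + GFP library and 0 in the other 4. KO + LEENE was the high group for Cd53, with 34 and 37 reads against 3 or fewer elsewhere.

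Some genes of other cell types and of all cells were also highest in KO + GFP. The fibroblast list, summed over 9 genes, held 0.00635% and 0.0072% of reads in WT + GFP, 1.59% in both KO + GFP libraries, then 0.00847% and 0.00837% in KO + LEENE, with Dcn, which encodes decorin, at 53 and 62, then 63633 and 40842, then 42 and 45 reads. Nearly all of the KO + GFP sum was Dcn and the collagens Col3a1, at 17 and 29, then 19017 and 12139, then 17 and 25 reads, and Col1a2, at 8 and 17, then 6491 and 4345, then 12 and 5. Of the 6 tested genes, 5 rose in KO + GFP vs WT + GFP and none fell, where 34.2% of all tested genes rose and 35.9% fell. Scaling by library size alone gave 4 higher and 1 lower. Pdgfra, a receptor that marks fibroblasts, had 171 and 141, then 119 and 93, then 65 and 66 reads and was not called (log2 fold change -0.16, edgeR adjusted p = 0.368), but was -0.65 with library size only (adjusted p = 2.01e-05). Lum and S100a4 had at most 1 read per library, and Dpt had 4 and 10 reads in KO + GFP and 0 elsewhere. The platelet gene Pf4, which some macrophages also express, had 13 and 12, then 16152 and 10677, then 2 and 1 reads, whereas the other platelet genes listed, Ppbp, Itga2b and Gp9, had at most 5 reads in every library. The housekeeping list of 21 genes held 0.121% and 0.125%, then 3.24% in both, then 0.175% and 0.183% of reads, and 9 of its 16 tested genes rose and 5 fell in KO + GFP vs WT + GFP, where 34.2% of all tested genes rose and 35.9% fell. Actb, the cytoskeletal actin of all cells, had 537 and 504, then 58995 and 38293, then 298 and 341 reads, and Hprt had 470 and 408, then 1 and 0, then 1 and 0. No more than 3 reads in either library were found for 5 of the 21 under WT + GFP, and for 6 each under KO + GFP and KO + LEENE. Gapdh, a glycolytic enzyme of all cells, had 1 to 9 reads in every library. Whether the counts of a single gene are comparable between groups was therefore not established here, and each fold change is one of the deposited counts. The part of these shifts in the macrophage result was not tested.

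The label of the cell fraction was checked against its defining endothelial genes, which were detected in all 6 libraries but were low for Cdh5 in KO + LEENE. Cdh5, which encodes CD144, had 332 and 283 reads for WT + GFP, 322 and 196 for KO + GFP, then 5 and 18 for KO + LEENE, and Pecam1 had 211 and 175, then 140 and 89, then 95 and 110. Cdh5 fell in KO + LEENE vs KO + GFP (edgeR adjusted p = 2.59e-71), and Pecam1 did not pass that test (adjusted p = 0.772). With library size as the only scaling Pecam1 rose by 1.22 there (adjusted p = 7.54e-14), and Cdh5 fell by 0.34 in KO + GFP vs WT + GFP (adjusted p = 0.00093). The 17 endothelial genes together held 0.0538% and 0.0505% of reads for WT + GFP, 0.273% and 0.289% for KO + GFP, then 0.0346% and 0.0353% for KO + LEENE. In KO + GFP most of this sum was 1 gene, Emcn, with 12245 of 15268 and 8648 of 10467 endothelial reads, against 14 and 8 reads under WT + GFP, or 8 and 7 under KO + LEENE. Of the 12 tested endothelial genes, 4 rose, 4 fell and 4 were not called in KO + GFP vs WT + GFP. Beside Emcn those that rose were Robo4, a receptor of vessel guidance, with 21 and 15, then 1586 and 950, then 80 and 61 reads, Vwf, the von Willebrand factor, with 81 and 53, then 158 and 92, then 317 and 340, and Tie1, with 9 and 1, then 588 and 366, then 5 and 8 (edgeR adjusted p = 4.94e-271, 1.69e-13 and 1.47e-158). Among those that fell was Kdr, which encodes the VEGF receptor VEGFR2 and had 808 and 708, then 13 and 9, then 47 and 41 reads (edgeR adjusted p = 3.41e-158). Col1a1 had 30 and 35, then 56 and 34, then 9 and 7 reads, and its rise in KO + GFP vs WT + GFP (adjusted p = 0.00199) was not called with library size as the only scaling (adjusted p = 0.19). The muscle fibre genes did not share 1 direction, with 4 of 11 tested and 2 higher, 1 lower and 1 not called in KO + GFP vs WT + GFP. Acta1 had 2 and 1, then 7 and 2, then 53 and 43 reads, whereas Myh4 had 1 and 3, then 102 and 65, then 1 and 0. The smooth muscle gene Acta2, the neutrophil gene S100a8, the T cell gene Cd3e and the B cell gene Cd79a never exceeded 6 reads.

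The 5 tested macrophage genes were averaged into 1 centred log2 profile and 2827 genes with a mean of at least 20 CPM were ranked by their distance from it. The 5 nearest were Hnrnpab (root mean square distance 0.14 log2 units over 6 libraries), Spag5 (0.19), Mnat1 (0.21), Pkn2 (0.25) and Golt1b (0.25). Hnrnpab had 26 and 34 reads for WT + GFP, 618 and 392 for KO + GFP, then 9 and 10 for KO + LEENE. None of the 5 is a known macrophage marker, and they have general roles such as RNA binding, mitosis and vesicle transport. The macrophage genes themselves lay farther out. Mrc1 was 0.63 from the mean profile, with 74 other genes nearer, Fcgr1 1.22 with 314 nearer, Lyz2 1.23 with 317 nearer, Adgre1 1.93 with 678 nearer, and C1qb 2.96 with 1541 nearer.

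**Figure D4:**
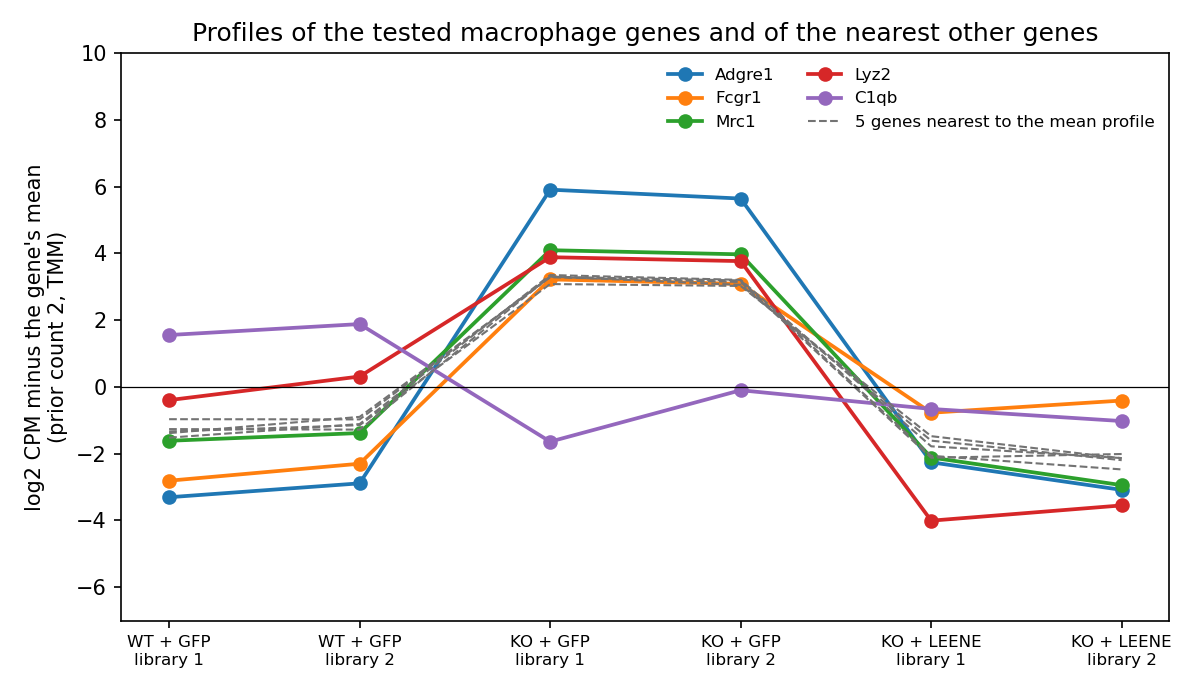
Log2 CPM of each gene minus its own mean (vertical axis) in the 6 libraries (horizontal axis) for the 5 tested macrophage genes (coloured lines) and the 5 genes nearest to their mean profile (dashed grey lines). Adgre1, Fcgr1, Mrc1 and Lyz2 peak in both KO + GFP libraries and C1qb is highest in WT + GFP, and the grey lines run between them.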

How the data were processed

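RNA from the CD144-enriched cells of 6 libraries was, per the labels, converted with a droplet-based 3′ kit used without droplets. The deposited values are read counts that the authors made, per the file headers, with featureCounts 2.0.0 over the exons of Ensembl release 84 (GRCm38), unstranded and from uniquely aligned reads. The submitters' processing notes name bcl2fastq 2.18, STAR 2.5.4b and mm10. The study's methods also name STAR, but with Kallisto, DESeq2 and an older mouse build. No step that collapses molecular identifiers is named, so intervals and floors cover counting error only.

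Of 47729 gene IDs, 43465 had a symbol in a later GENCODE release and 4264 did not. The quasi-likelihood test ran in edgeR 4.0.16 under R 4.3.3 (TMM, filterByExpr at a count of 10 and a total of 15, a mean per group, all 6 libraries in 1 fit). Benjamini-Hochberg adjustment covered 8903 genes, with calls at 0.05. An SE is the log2 fold change divided by the square root of F. Ratios and shares carry exact 95% intervals. The script was tested on simulated data. List calls with library size only were added after seeing the data. Alternatives included DESeq2 1.42.0, other scalings and filters, thinned counts, a replicate block and leaving out each library.

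The macrophage genes and the other lists were chosen with earlier results of these data known. Besides the macrophage genes, the text names up to 4 genes per list by highest mean CPM, the defining markers of other cell types, and the 5 genes nearest to the mean profile. Near copies and the housekeeping gene Hprt, at the floor in whole groups, are named as well. Lcp1, Cd36, Gapdh, Tie1, Axl, Spi1 and further fibroblast, platelet, mast and mural cell genes were added after their values were seen. A few genes that this rule would name are not reported here. Promoter sequences are from RefSeq (GRCm38.p6). Windows on chromosome 18, where Cd14 and Csf1r lie, were left out, and windows were taken for 6 of the 10 genes.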

Additional observations from a re-analysis of the deposited data

How the results depend on the processing

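Each comparison of the 5 tested macrophage genes was recomputed under the alternatives, and apart from the cases given here each kept its direction and its side of the threshold. C1qb in KO + LEENE vs KO + GFP, which was not called, turned from -0.05 to 1.07 with library size as the only scaling and to 0.0815 with no filter. It ranged from -1.05 to 1.64 when 1 library was left out, with 1.64 without KO + GFP replicate 2 and 0.263 without KO + LEENE replicate 2. The call on Mrc1 in KO + LEENE vs WT + GFP was lost with library size only, with thinned counts (-0.80, adjusted p = 0.0595) and without KO + LEENE replicate 2. Thinning to the smallest total left 2 macrophage genes called in that comparison, since Mrc1 lost its call and C1qb failed the filter, and 4 in KO + GFP vs WT + GFP, again without C1qb. With only the 4 libraries compared, Fcgr1 and Adgre1 failed the filter in KO + LEENE vs WT + GFP, and C1qb failed it in KO + LEENE vs KO + GFP. Requiring 10 reads in every library left 2083 genes and no macrophage gene, with 1536, 1505 and 1552 differentially expressed genes (DEGs) in KO + GFP vs WT + GFP, KO + LEENE vs KO + GFP and KO + LEENE vs WT + GFP. DESeq2 called 5506, 5369 and 5519 DEGs and 5, 4 and 4 macrophage genes. Without mitochondrial genes in the total, the macrophage share was 0.00708% for WT + GFP, 0.126% for KO + GFP and 0.00237% for KO + LEENE. Scaling by library size alone moved the median over all tested genes to -0.57, 1.07 and 0.50, and DEGs were 2639 higher and 3937 lower (with TMM 3045 and 3194), 4474 higher and 2189 lower (2924 and 3111), and 3869 higher and 2588 lower (3014 and 3281). Of the 5 genes nearest to the mean profile, 2 were shared with a prior count of 0.5. Replicate numbers did not pair the libraries (correlations of their deviations 0.0306, 0.0138 and 0.0193), and with the replicate block 6072, 5841 and 6147 DEGs and 5, 4 and 4 macrophage genes were called, with no change in any macrophage call. Depth limits KO + LEENE most. Apart from fewer genes or libraries in the fit, the causes of these shifts were not tested.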

Other observations

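Lists of further cell types gave these values. Dendritic cell genes summed to 7 to 13 reads per library over 8 genes, neutrophil genes to 2 to 15 reads over 11, and B cell genes to 1 to 21 reads over 6. Among T and NK cell genes only Cd4, which some mouse macrophages also carry, passed the filter, with 73 and 49 reads for WT + GFP, 65 and 39 for KO + GFP, then 48 and 45 for KO + LEENE, and no change was called (edgeR adjusted p = 0.524 in KO + GFP vs WT + GFP and 0.856 in KO + LEENE vs KO + GFP), although with library size as the only scaling it was 1.22 higher on the log2 scale in the latter (adjusted p = 9.92e-07). Of 6 mast cell genes Kit, the receptor for stem cell factor, was the single one tested. It had 7 and 5, then 8 and 1, then 33 and 41 reads. Kit rose in KO + LEENE vs KO + GFP (edgeR adjusted p = 8.46e-13). It reached the filter's level in KO + LEENE alone and had to be high there to be tested. Cpa3, Mcpt4, Tpsb2, Fcer1a and Cma1 had at most 1 read in every library. Red blood cell genes took 0.257% and 0.266% of reads for WT + GFP, 0.123% and 0.127% for KO + GFP, then 0.091% and 0.0866% for KO + LEENE. Of 9 mural cell genes 2 were tested. Rgs5, a pericyte gene, had 2 and 4, then 21 and 5, then 51 and 69 reads, and Myh11, of smooth muscle, had 2 and 4, then 1 and 3, then 9 and 13. Pdgfrb and Cspg4 had at most 3 reads in every library, Notch3 at most 4 and Kcnj8 at most 1.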
